A study of Mus musculus with 12 samples.

Results

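The 36 genes described here build or surround the liver sinusoid: collagens, other extracellular matrix proteins, proteases and their inhibitors, and genes of hepatic stellate cells, contractile cells and endothelium. They were taken by name, as every probe set of the array whose platform annotation gave 1 of the 36 gene symbols. No measured value entered that match, but the names were chosen with earlier results of these data known. All 36 were on the array, with 67 probe sets, among 12393 genes with a probe set of their own. The brightest probe set of a gene stood for it, and 31 of the 36 were tested, among 7217 genes whose probe set lay above the array median on at least 3 of the 12 arrays.

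The study hybridised liver RNA of female C57BL/6 mice to Affymetrix arrays, 1 array per mouse and 3 mice per group. Testosterone withdrawal mice had received subcutaneous testosterone, 0.9 mg in 100 µl sesame oil, in 2 injections a week over 3 weeks, and were then left without hormone. Vehicle withdrawal mice had received the oil alone on the same schedule and the same time without injections. Testosterone end and vehicle end mice had the same 2 treatments and were sampled directly after them. The sample titles give 12 weeks of withdrawal and the design text gives 3 weeks, and the age of the mice is not given in the sources used here. The withdrawal mice were sampled later than the end mice, so withdrawal itself cannot be told apart from age or from the end of the injections. All mice were females, with no surgery and no genetic change named in the labels, and the values are of whole liver.

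The liver sinusoid is lined by a thin fenestrated endothelium that carries scavenger receptors and lies on little organised basement membrane. Beneath it sit stellate cells, which store vitamin A and, when activated, become contractile and deposit fibrillar collagen, the scar of liver fibrosis. Around portal tracts and central veins, fibroblasts and smooth muscle keep a denser matrix of collagens and small proteoglycans.

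Each array had been scaled before deposit to the same trimmed mean, with median signals between 20.1 and 22.6. Over all probe sets, correlations ran between 0.979 and 0.989 within groups and between 0.969 and 0.982 across groups. All 20 hepatocyte markers on the array passed the filter, and their summed signal was 72077 to 84408 in testosterone withdrawal mice, 68386 to 73938 in vehicle withdrawal mice, 69689 to 70804 in testosterone end mice and 69631 to 72668 in vehicle end mice. The actin control, the ratio of its 3′ to its 5′ probe set and a sign of RNA length, was 1.82, 1.57 and 1.47 in testosterone withdrawal mice, 1.60, 1.83 and 1.89 in vehicle withdrawal mice, 2.03, 2.11 and 2.19 in testosterone end mice and 1.44, 1.64 and 1.48 in vehicle end mice. The 3 testosterone end mice thus lay above the other 9. Vehicle end mouse 1 stood apart, with the highest level of fibrillar collagens and of macrophage markers among the end mice. Lyve1, the macrophage counts and most calls it was found to change are also given without it.

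Across the 31 tested genes, limma called 7 between testosterone and vehicle at the end of treatment at an adjusted p under 0.05. Only Pdgfrb was higher (1 of 31, against 9.42% of all genes tested), and Col5a2, Col14a1, Bgn, Ecm1, Egfl7 and Stab2 were lower (6 of 31, against 8.01%). After withdrawal, testosterone mice were lower than vehicle mice in 1 gene, Col14a1 (1 of 31, against 3.26%), and higher in 0 (against 2.74%). There 9 of the 31 had an unadjusted p under 0.05, beside 1485 of 7217 over all genes. Between the vehicle groups, withdrawal time against end, 6 genes were higher (Col14a1, Col18a1, Ecm1, Mmp2, Pdgfrb and Reln, against 11.0% of all genes) and Stab2 alone was lower (against 6.83%). Mmp2 passed the filter only through withdrawal arrays, where it was high, so its call adds no support to that count. Between the testosterone groups, withdrawal time against end, Col18a1, Ecm1 and Egfl7 were higher (3 of 31, against 5.57%) and 0 were lower (against 5.31%). In either direction 9 of 31 had an unadjusted p under 0.05 there, beside 1870 of 7217 over all genes.

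For the difference between the 2 testosterone effects, after withdrawal minus end, limma called 0 of 31 against 2.19% of all genes. An unadjusted p under 0.05 was found for 4 of the 31, beside 1580 of 7217 over all genes. The numbers of calls are small, and each of the 4 comparisons between groups shares 1 group with each of 2 others, so they are not independent of each other. The median log2 change over the 31 genes was -0.16 for testosterone against vehicle at the end, beside 0.04 over all genes, and -0.21 after withdrawal, beside -0.04. It was 0.27 between the vehicle times, beside 0.06, and 0.17 between the testosterone times, beside -0.01. At the end of treatment 8 of the 31 changes were above 0, beside 4051 of 7217 over all genes. After withdrawal 3 of the 31 were, beside 3198 of 7217. In whole liver, fewer cells of a type and less RNA per cell cannot be told apart. With the log2 actin ratio as a covariate, limma called 0 of the 31 between testosterone and vehicle at the end (1 at an unadjusted p under 0.05), 0 between the testosterone times (2 unadjusted), 2 between the vehicle times and, as before, Col14a1 after withdrawal. Since all 3 testosterone end mice had the highest ratios, treatment and RNA length at the end cannot be told apart by this covariate. Among all genes it left 33 higher and 45 lower at the end, beside 680 and 578.

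The numbers of all genes called depended on the scaling. With arrays centred on their median in place of the deposited scale, the split of higher and lower genes was 265 and 167 after withdrawal, beside 198 and 235 as deposited. It was 475 and 710 between the vehicle times, beside 795 and 493, and 292 and 453 between the testosterone times, beside 402 and 383. The members' median kept its sign in these 3 comparisons, at -0.13, 0.17 and 0.12, while the all-gene median between the vehicle times was -0.04 with centring, beside 0.06.

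**Figure D1:**
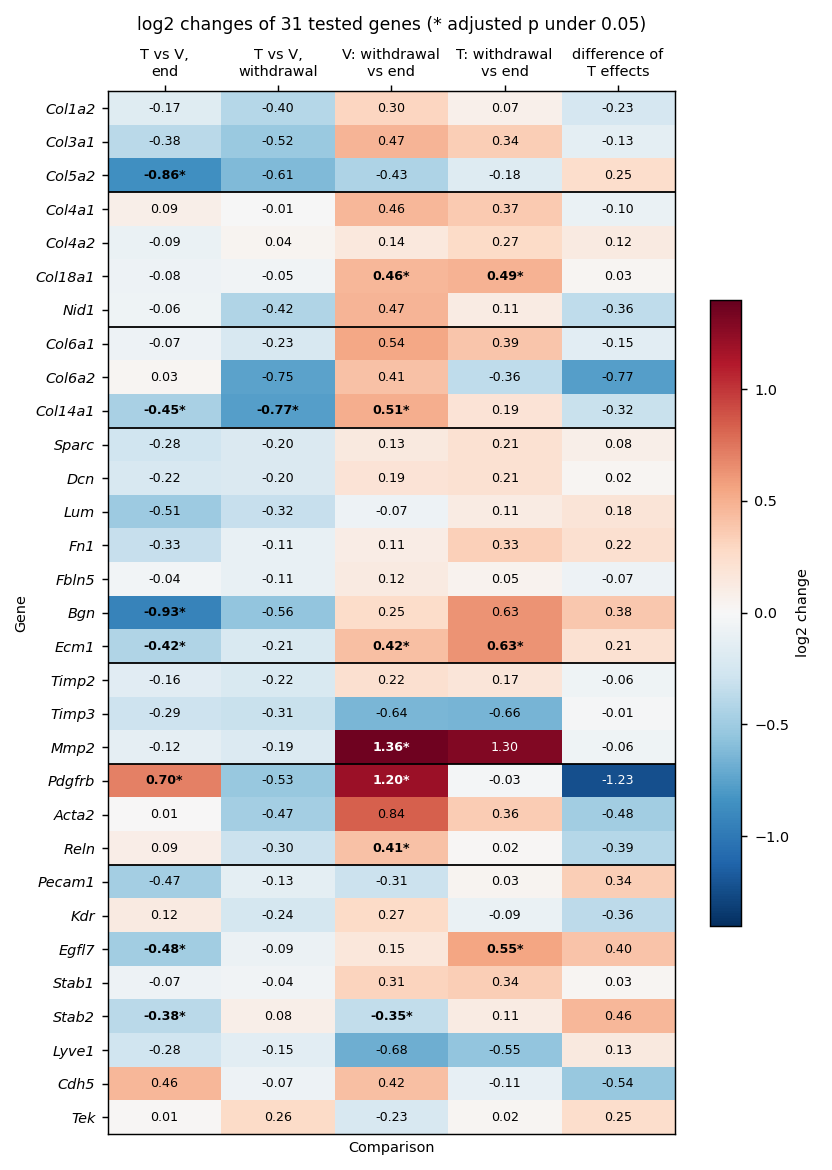
Heat map of log2 changes for the 31 tested genes (vertical axis, grouped by class) in 5 comparisons (horizontal axis; T testosterone, V vehicle; the last column is the T effect after withdrawal minus that at the end). Red is higher and blue lower in the group named first, a star marks an adjusted p under 0.05, and Col14a1 holds the 1 star in the column of T against V after withdrawal, at -0.77.

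Fibrillar collagens form the tensile fibres of connective tissue, with Col1a1 and Col1a2 as the chains of type I, Col3a1 as type III and Col5a2 as a type V chain that sets fibre diameter. Col5a2 had signals of 16.7, 19.4 and 14.9 in the testosterone withdrawal mice, 38.95, 17.8 and 24.8 in the vehicle withdrawal mice, 18.6, 17.4 and 21.5 in the testosterone end mice and 32.04, 41.9 and 31.3 in the vehicle end mice. Vehicle end mice were all above testosterone end mice, whereas after withdrawal 1 vehicle mouse lay within the testosterone values. The level was 19.2 ± 2.11 in the testosterone end mice and 35.1 ± 5.89 in the vehicle end mice (SD, n = 3 each), 1.82-fold lower with testosterone, a log2 change of -0.86 ± 0.26 (SE, adjusted p = 0.0323). After withdrawal the log2 change was -0.61 ± 0.26 (SE, adjusted p = 0.186) and did not pass. The call at the end was lost on leaving out 4 of the 12 mice in turn (adjusted p 0.0614 to 0.111 where lost), namely testosterone end mouse 1 or 2 or vehicle end mouse 1 or 2.

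Col3a1 had signals of 106, 108 and 109 in the testosterone withdrawal mice, 145, 179.9 and 139 in the vehicle withdrawal mice, 88.004, 78.6 and 88.6 in the testosterone end mice and 145, 111 and 84.4 in the vehicle end mice. After withdrawal every testosterone mouse was below every vehicle mouse, while at the end the groups overlapped through 1 vehicle mouse. The log2 change of Col3a1 was -0.52 ± 0.16 (SE, adjusted p = 0.0769) after withdrawal and -0.38 ± 0.16 (SE, adjusted p = 0.121) at the end, neither of which passed. After withdrawal it passed in limma without vehicle end mouse 1 (adjusted p = 0.0338), without vehicle end mouse 3, and with only the 2 groups compared. These 2 mice are in neither group of that comparison, so leaving them out altered only the estimated spread and the adjustment. It passed at the end without vehicle end mouse 3, at an adjusted p of 0.0174. Between the vehicle times the log2 change was 0.47 (limma, adjusted p = 0.0612 among all probe sets), not a call. Without vehicle end mouse 1 Col3a1 was called higher there. Col1a1 had signals of 14.4, 7.53 and 1.52 in the testosterone withdrawal mice, 10.1, 13.5 and 3.91 in the vehicle withdrawal mice, 11.6, 11.02 and 1.09 in the testosterone end mice and 21.95, 6.41 and 7.88 in the vehicle end mice. These signals of the major type I chain lay mostly under the array median, 3 of the 12 at or under the floor of 4.84, so Col1a1 was not tested. Its partner chain Col1a2 was tested, with log2 changes of -0.17 at the end and -0.40 after withdrawal, neither past the threshold. Col3a1 and Col5a2 are neighbours on chromosome 1, and their changes stand above.

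**Figure D2:**
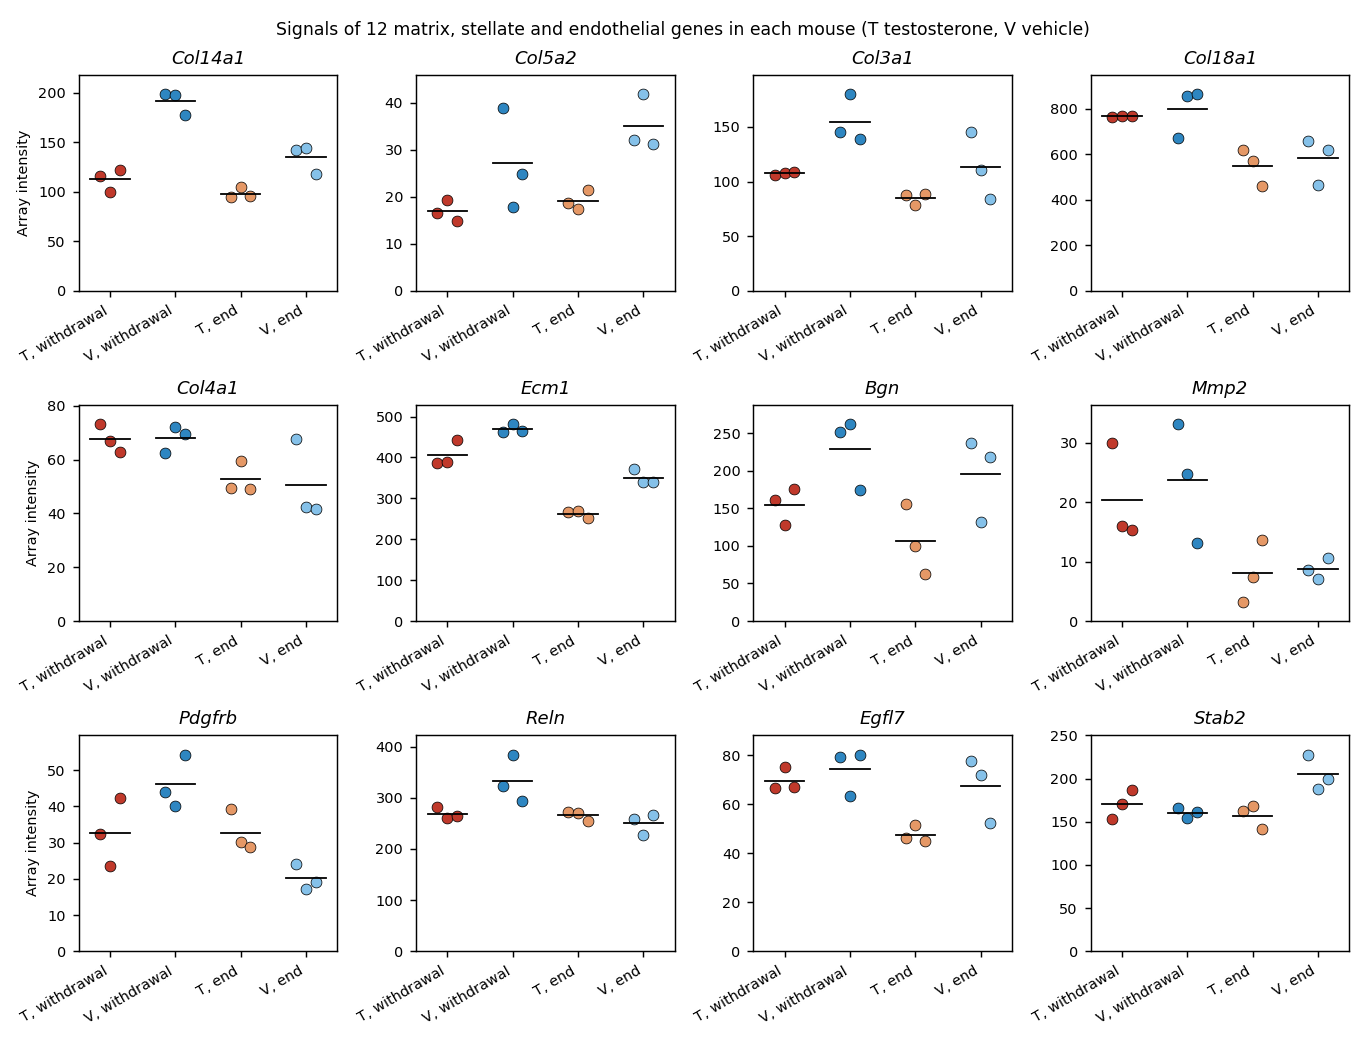
Array intensity (vertical axis, linear from 0) of 12 genes in each mouse (points) with the mean of the group (bar), for testosterone withdrawal, vehicle withdrawal, testosterone end and vehicle end (horizontal axis, left to right). Col14a1 is lower in every testosterone mouse than in every vehicle mouse of the same time, and Ecm1 is lower in every end mouse than in every withdrawal mouse.

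Basement membrane genes encode the sheet under endothelium and epithelium: Col4a1 and Col4a2 form its type IV network, Nid1 links that network to laminins, Lama4 is a laminin chain of vessels, and Col15a1 and Col18a1 carry anti-angiogenic fragments. Col18a1 had signals of 766, 768 and 771 in the testosterone withdrawal mice, 673, 857 and 865 in the vehicle withdrawal mice, 622, 569 and 462 in the testosterone end mice and 659.9, 467 and 621 in the vehicle end mice. In both treatments every withdrawal mouse was above every end mouse. The level was 768 ± 2.21 in the testosterone withdrawal mice and 551 ± 81.7 in the testosterone end mice (SD, n = 3 each), a log2 change of 0.49 ± 0.14 (SE, adjusted p = 0.0348) with time in testosterone mice, and 0.46 ± 0.14 (SE, adjusted p = 0.0336) in vehicle mice. A second Col18a1 probe set gave 0.52 ± 0.11 (SE, adjusted p = 0.00747) and 0.40 ± 0.11 (SE, adjusted p = 0.0221) for the same 2 comparisons in a fit of every probe set. Testosterone and vehicle did not differ past the threshold at either time, with log2 changes of -0.05 after withdrawal and -0.08 at the end. On the gene's first probe set, the call with time was lost on leaving out 5 of the 12 mice in turn (adjusted p 0.0631 to 0.149 where lost) in testosterone mice, each testosterone withdrawal mouse and testosterone end mice 2 and 3. In vehicle mice it was lost on leaving out 3 of the 12 mice in turn (adjusted p 0.123 to 0.133 where lost), vehicle withdrawal mice 2 and 3 and vehicle end mouse 2.

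Col4a1 had signals of 73.04, 66.98 and 62.9 in the testosterone withdrawal mice, 62.5, 72.1 and 69.6 in the vehicle withdrawal mice, 49.2, 59.5 and 49.05 in the testosterone end mice and 67.7, 42.5 and 41.8 in the vehicle end mice. Vehicle end mouse 1 was well above the other 2 of its group, and without it Col4a1 passed between the vehicle times. With all mice the log2 change was 0.46 ± 0.17 (SE, adjusted p = 0.0775) between the vehicle times and 0.37 ± 0.17 (SE, adjusted p = 0.195) between the testosterone times. Testosterone against vehicle gave -0.01 after withdrawal and 0.09 at the end, with 95% intervals from -0.38 to 0.36 and from -0.28 to 0.45. Its head-to-head neighbour on chromosome 8, Col4a2, gave 0.04, -0.09, 0.14 and 0.27 for testosterone after withdrawal, testosterone at the end, vehicle times and testosterone times. None of these passed. Nid1 changed by 0.47 ± 0.16 (SE, adjusted p = 0.0517) between the vehicle times and missed the threshold, with no overlap of the groups. Col15a1 had signals of 5.34 to 24.1 over the 12 mice and Lama4 6.60 to 23.6, mostly under the array median, so neither was tested.

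Col14a1 encodes a collagen that sits on the surface of fibrils and belongs to portal fibroblasts, and Col6a1 and Col6a2 are chains of the microfibrils of type VI collagen. Col14a1 had signals of 116, 99.3 and 122 in the testosterone withdrawal mice, 198, 198 and 178 in the vehicle withdrawal mice, 94.5, 104 and 95.4 in the testosterone end mice and 142, 144 and 118 in the vehicle end mice. At each time every testosterone mouse was below every vehicle mouse, and the vehicle withdrawal mice were the highest of all. After withdrawal the level was 113 ± 11.9 in the testosterone withdrawal mice and 191 ± 11.8 in the vehicle withdrawal mice (SD, n = 3 each), 1.70-fold lower with testosterone. The log2 change was -0.77 ± 0.12 (SE, adjusted p = 0.000896), and it was called in all 24 alternative settings, with adjusted p between 0.000691 and 0.008. At the end it was -0.45 ± 0.12 (SE, adjusted p = 0.016), 1.37-fold lower, and this call was lost on leaving out 3 of the 12 mice in turn (adjusted p 0.0503 to 0.0641 where lost), testosterone end mouse 1 or vehicle end mouse 1 or 2. Between the vehicle times Col14a1 was higher by 0.51 ± 0.12 (SE, adjusted p = 0.00952), and between the testosterone times the change of 0.19 ± 0.12 (SE, adjusted p = 0.317) did not pass. The difference between the 2 testosterone effects was -0.32 ± 0.17 (SE, adjusted p = 0.281), which did not pass. A second Col14a1 probe set gave -0.64 ± 0.16 (SE, adjusted p = 0.032) after withdrawal and -0.25 ± 0.16 (SE, adjusted p = 0.301) at the end. Its call after withdrawal was lost in 9 of 22 alternatives, 5 of them with 1 mouse left out (limma, adjusted p up to 0.124).

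Col6a2 had signals of 17.4, 20.01 and 11.7 in the testosterone withdrawal mice, 25.6, 29.9 and 25.01 in the vehicle withdrawal mice, 22.7, 19.2 and 19.7 in the testosterone end mice and 22.6, 18.7 and 19.2 in the vehicle end mice. After withdrawal the testosterone mice were all below the vehicle mice, and at the end the groups overlapped. The log2 change was -0.75 ± 0.23 (SE, adjusted p = 0.0664) after withdrawal, which missed the threshold, and 0.03 at the end. With signals under 16 set to 16 it was called after withdrawal. Its neighbour on chromosome 10, Col6a1, changed by -0.23 and -0.07 in these comparisons, and neither passed.

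Ecm1 encodes a secreted glycoprotein that binds perlecan and proteases, and in mouse liver it keeps latent TGF-beta inactive. Ecm1 had signals of 386, 389 and 443 in the testosterone withdrawal mice, 462, 481 and 465 in the vehicle withdrawal mice, 267, 268 and 251 in the testosterone end mice and 373, 339.8 and 339.6 in the vehicle end mice. The testosterone end mice were the lowest of all and the vehicle withdrawal mice the highest, and no 2 groups overlapped. At the end the level was 262 ± 9.55 in the testosterone end mice and 351 ± 18.9 in the vehicle end mice (SD, n = 3 each), a log2 change of -0.42 ± 0.09 (SE, adjusted p = 0.00532). It was higher at the withdrawal time in both treatments, by 0.63 ± 0.09 (SE, adjusted p = 0.000417) in testosterone mice and by 0.42 ± 0.09 (SE, adjusted p = 0.00566) in vehicle mice. After withdrawal, testosterone against vehicle gave -0.21 ± 0.09 (SE, adjusted p = 0.184), which did not pass although the groups did not overlap. Each of the 3 calls held on leaving out any mouse, and the call between the vehicle times held in all 24 alternatives. With the actin ratio as a covariate, the change at the end was -0.25 (adjusted p = 0.636) and the testosterone times gave 0.49 (adjusted p = 0.149).

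The promoters of Ecm1, Reln and Stab2 are shown because these 3 genes changed between the vehicle groups and have 1 listed start each. RefSeq promoters of build GRCm38.p6 were matched for 24 of the 36 genes. The 250 bases before the start lie at chr3:95739570-95739819 for Ecm1, chr5:22344706-22344955 for Reln and chr10:87007943-87008192 for Stab2, all 3 on the minus strand, and are given 5′ to 3′ along the gene. Capitals mark matches, on either strand, to 5 motifs. The first is TATAAA, which the TATA-binding protein recognises. Another is CCAAT, the site of the trimeric factor NF-Y. A Sp1 site of the form GGGCGG was searched as well. The steroid receptor hexamer TGTTCT is a core of androgen and glucocorticoid response elements. The palindrome TTCNNNGAA is the form that STAT5 binds.
Ecm1: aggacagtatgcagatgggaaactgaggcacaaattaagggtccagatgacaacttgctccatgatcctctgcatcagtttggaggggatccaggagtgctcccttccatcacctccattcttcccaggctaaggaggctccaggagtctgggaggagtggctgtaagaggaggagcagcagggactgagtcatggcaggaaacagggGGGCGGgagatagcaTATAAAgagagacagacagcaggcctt
Reln: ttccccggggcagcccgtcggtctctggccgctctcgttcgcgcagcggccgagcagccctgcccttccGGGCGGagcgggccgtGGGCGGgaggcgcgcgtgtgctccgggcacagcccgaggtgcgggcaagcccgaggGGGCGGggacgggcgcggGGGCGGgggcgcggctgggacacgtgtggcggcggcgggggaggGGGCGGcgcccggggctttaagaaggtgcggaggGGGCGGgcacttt
Stab2: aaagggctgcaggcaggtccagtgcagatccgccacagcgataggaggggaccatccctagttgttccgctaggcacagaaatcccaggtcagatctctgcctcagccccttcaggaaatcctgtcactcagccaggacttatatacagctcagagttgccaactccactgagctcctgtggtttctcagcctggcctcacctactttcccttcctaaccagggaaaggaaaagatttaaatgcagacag
Ecm1 held 1 match to the TATA-binding protein motif and 1 to the Sp1 motif, Reln held 6 to the Sp1 motif, and Stab2 held no match to the 5 motifs; no match overlapped another. Of 32851 promoter windows of the same length, 12.4% held the motif of the TATA-binding protein, 33.8% that of NF-Y, 32.7% that of Sp1, 16.1% the steroid receptor hexamer and 7.02% the STAT5 palindrome. The GC content was 54.0% for Ecm1, 80.0% for Reln and 53.2% for Stab2, beside a median of 52.4% over all windows. These matches describe the letters of the windows only.

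Biglycan (Bgn), decorin (Dcn) and lumican (Lum) are small leucine-rich proteoglycans of collagen fibrils, Fn1 is fibronectin, made in large part by hepatocytes, Sparc is a collagen-binding protein and Fbln5 organises elastic fibres. Bgn had signals of 161, 128 and 175 in the testosterone withdrawal mice, 251, 261 and 175 in the vehicle withdrawal mice, 156, 99.7 and 62.4 in the testosterone end mice and 237, 131 and 218 in the vehicle end mice. The end groups overlapped by 1 mouse on each side. At the end the level was 106 ± 47.1 in the testosterone end mice and 195 ± 56.3 in the vehicle end mice (SD, n = 3 each), a log2 change of -0.93 ± 0.28 (SE, adjusted p = 0.0334). The call was lost on leaving out 4 of the 12 mice in turn (adjusted p 0.0817 to 0.143 where lost), testosterone end mouse 2 or 3 or vehicle end mouse 1 or 3. The other 2 Bgn probe sets gave -0.28 ± 0.20 (SE, adjusted p = 0.345) and -0.25 ± 0.19 (SE, adjusted p = 0.364), lower but not called. With the actin ratio as a covariate the change of Bgn was 0.0038 (adjusted p = 0.998).

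Lum had signals of 68.6, 70.8 and 63.3 in the testosterone withdrawal mice, 135, 77.3 and 57.6 in the vehicle withdrawal mice, 63.3, 66.9 and 57.5 in the testosterone end mice and 119, 83.6 and 70.4 in the vehicle end mice. The end groups did not overlap, and vehicle mouse 1 was the highest at each time. The log2 change at the end was -0.51 ± 0.24 (SE, adjusted p = 0.167), which did not pass. Dcn, the neighbour of Lum on chromosome 10, changed by -0.22 at the end and -0.20 after withdrawal, Sparc by -0.28 and -0.20, and Fbln5 by -0.04 and -0.11. None of these passed, and all 7 genes of the class had changes below 0 in both comparisons. Over all genes, 4051 of 7217 changes were above 0 at the end and 3198 of 7217 after withdrawal.

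Fn1 was measured by 2 tested probe sets that did not move alike. Probe set 1437218_at had signals of 213, 154 and 255 in the testosterone withdrawal mice, 144, 213 and 189 in the vehicle withdrawal mice, 58.7, 68.5 and 61.3 in the testosterone end mice and 148, 180.2 and 139 in the vehicle end mice. The testosterone end mice were all far below the other 9 mice. In a fit of every probe set its log2 change was -1.31 ± 0.18 (SE, adjusted p = 0.000283) at the end and 0.18 ± 0.18 (SE, adjusted p = 0.619) after withdrawal, and the difference between these was 1.48 ± 0.26 (SE, adjusted p = 0.00969). It was higher by 1.69 ± 0.18 (SE, adjusted p = 4.26e-05) at the withdrawal time in testosterone mice. The brighter Fn1 probe set, 1426642_at, had signals of 1686, 1731 and 1706 in the testosterone withdrawal mice, 1641, 1952 and 1938 in the vehicle withdrawal mice, 1533, 1432 and 1147 in the testosterone end mice and 1753, 1498 and 1886 in the vehicle end mice. Here the end groups overlapped, and the log2 change at the end was -0.33 ± 0.11 (SE, adjusted p = 0.0552), short of the threshold. Which transcript parts the 2 probe sets detect is not annotated in the sources used here. The actin ratio was highest in the testosterone end mice, and with it as a covariate the first probe set gave -1.69 at the end (adjusted p = 0.0503).

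**Figure D3:**
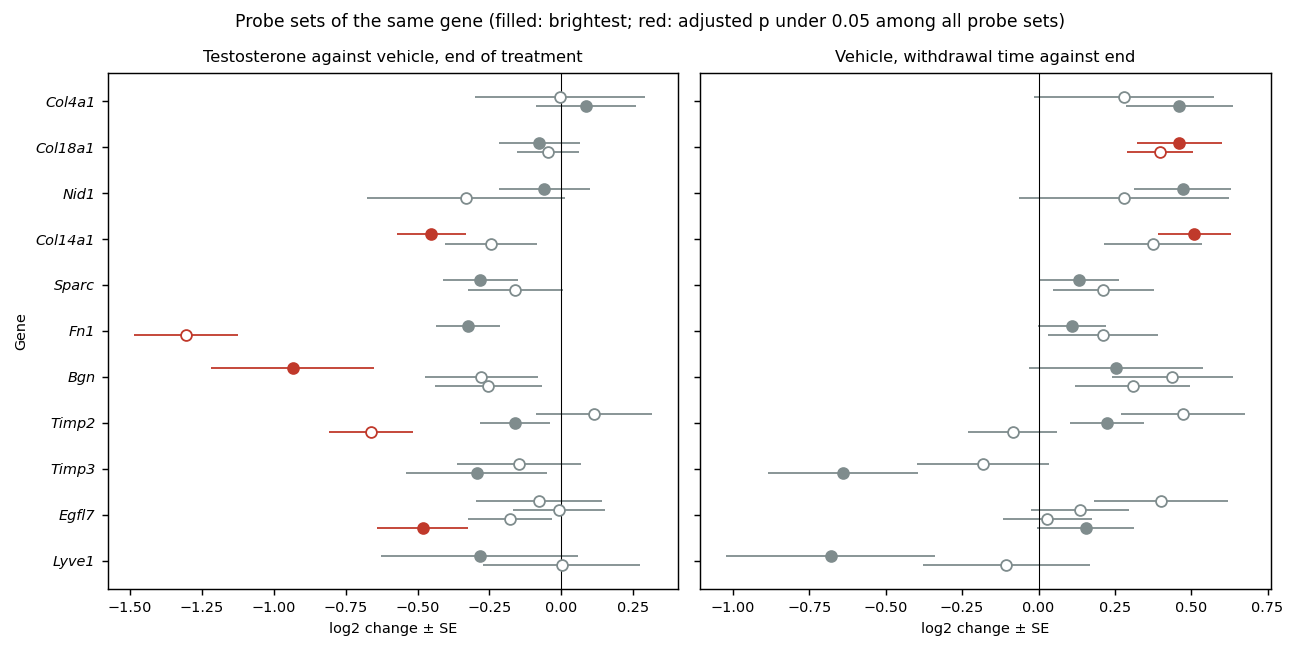
Log2 change ± SE (horizontal axis) of each probe set of the 11 genes with more than 1 tested probe set (vertical axis), for testosterone against vehicle at the end (left) and vehicle withdrawal time against end (right). Filled points are the brightest probe set of a gene and red points have an adjusted p under 0.05 among 11136 probe sets; Fn1 at the end has values of -1.31 and -0.33.

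Mmp2 encodes gelatinase A, which cuts denatured and type IV collagen, and Timp2 and Timp3 encode inhibitors of metalloproteinases. Mmp2 had signals of 30.02, 16.004 and 15.3 in the testosterone withdrawal mice, 33.1, 24.8 and 13.2 in the vehicle withdrawal mice, 3.26, 7.49 and 13.7 in the testosterone end mice and 8.57, 7.02 and 10.6 in the vehicle end mice. Within each treatment every withdrawal mouse was above every end mouse. The signals were low, and 1 testosterone end value was under the floor and set to 4.84. The level was 23.7 ± 9.99 in the vehicle withdrawal mice and 8.74 ± 1.81 in the vehicle end mice (SD, n = 3 each), 2.57-fold higher with time, a log2 change of 1.36 ± 0.43 (SE, adjusted p = 0.0408). Only 3 arrays, all of withdrawal mice, lay above the array median, and every end signal lay under it, so the size of the fold rests on dim end values and the gene was tested only because it was high in the withdrawal mice. With a floor of 16 the change was 0.56 (adjusted p = 0.159), and the call was also lost with no filter (adjusted p = 0.127) and with quantile normalization (adjusted p = 0.0591). Between the testosterone times it was 1.30 ± 0.43 (SE, adjusted p = 0.068) and did not pass. The call in vehicle mice was lost on leaving out 5 of the 12 mice in turn (adjusted p 0.0508 to 0.134 where lost), vehicle withdrawal mouse 1 or 2 or any vehicle end mouse. Timp3 changed by -0.64 between the vehicle times and -0.66 between the testosterone times, neither past the threshold. Timp2 changed by -0.16 at the end on its brightest probe set, whereas another, 1460287_at, gave -0.66 ± 0.15 (SE, adjusted p = 0.00647). The call of 1460287_at was lost with the actin ratio as a covariate (limma, adjusted p = 0.676). The remaining tested Timp2 probe set, 1433662_s_at, had the opposite sign at the end, 0.12 ± 0.20 (SE, adjusted p = 0.728), and was not called.

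Pdgfrb encodes the PDGF receptor of stellate cells and pericytes, Acta2 the smooth muscle actin of activated stellate cells and vessel walls, Reln a secreted glycoprotein made by stellate cells, Lrat the enzyme that stores vitamin A as esters, and Des the muscle-type filament desmin. Pdgfrb had signals of 32.3, 23.5 and 42.3 in the testosterone withdrawal mice, 43.98, 40.2 and 54.3 in the vehicle withdrawal mice, 39.3, 30.2 and 28.8 in the testosterone end mice and 24.1, 17.2 and 19.2 in the vehicle end mice. The vehicle end mice were the lowest of all but for 1 overlapping testosterone withdrawal mouse, and at the end every testosterone mouse was above every vehicle mouse. Between the vehicle times Pdgfrb was 2.30-fold higher at the withdrawal time, 46.2 ± 7.30 in the vehicle withdrawal mice and 20.2 ± 3.57 in the vehicle end mice (SD, n = 3 each), a log2 change of 1.20 ± 0.23 (SE, adjusted p = 0.00293). This call held in all 22 alternatives that tested it. At the end testosterone against vehicle was 0.70 ± 0.23 (SE, adjusted p = 0.0447), a call lost on leaving out 9 of the 12 mice in turn (adjusted p 0.0505 to 0.166 where lost); it held without vehicle end mouse 1 and without 2 other mice. After withdrawal the sign was the other way, -0.53 ± 0.23 (SE, adjusted p = 0.197), and did not pass. The difference between the 2 effects was -1.23 ± 0.32 (SE, adjusted p = 0.0568) in the fit of 1 probe set per gene and had an adjusted p of 0.0425 in the fit of every probe set.

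Acta2 had signals of 66.5, 30.3 and 38.2 in the testosterone withdrawal mice, 71.2, 59.3 and 48.5 in the vehicle withdrawal mice, 29.7, 31.4 and 39.3 in the testosterone end mice and 51.2, 26.3 and 26.7 in the vehicle end mice. Vehicle end mouse 1 lay far above the other 2 of its group, and mice of all groups overlapped in most pairs. The log2 change was 0.84 ± 0.29 (SE, adjusted p = 0.0572) between the vehicle times, -0.47 ± 0.29 (SE, adjusted p = 0.374) for testosterone after withdrawal and 0.01 ± 0.29 (SE, adjusted p = 0.984) at the end. None passed, and without vehicle end mouse 1 Acta2 was called between the vehicle times. Reln had signals of 281, 261 and 265 in the testosterone withdrawal mice, 323, 384 and 293 in the vehicle withdrawal mice, 273, 270.1 and 255 in the testosterone end mice and 258, 228 and 265 in the vehicle end mice. The vehicle withdrawal mice were above all the other 9. Between the vehicle times Reln was 1.33-fold higher at the withdrawal time, a log2 change of 0.41 ± 0.11 (SE, adjusted p = 0.0179), and testosterone after withdrawal gave -0.30 ± 0.11 (SE, adjusted p = 0.117), which did not pass. The call was lost without vehicle withdrawal mouse 2 or without vehicle end mouse 2, at adjusted p of 0.101 and 0.0592. Lrat had signals of 5.27 to 17.6 and Des 1.66 to 18.7 over the 12 mice, mostly under the array median, so these 2 stellate markers were not tested.

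The endothelial genes were Stab1, Stab2 and Lyve1, which are scavenger or hyaluronan receptors of sinusoidal endothelium, Kdr and Tek, receptors of VEGF and angiopoietins, Pecam1 and Cdh5, which encode junction proteins, and Egfl7, which encodes a secreted vessel factor. Stab2 had signals of 153, 170.2 and 187 in the testosterone withdrawal mice, 165, 155 and 161 in the vehicle withdrawal mice, 162, 168 and 141 in the testosterone end mice and 228, 187 and 199 in the vehicle end mice. The vehicle end mice were above all the other 9. At the end the level was 157 ± 14.1 in the testosterone end mice and 205 ± 20.7 in the vehicle end mice (SD, n = 3 each), 1.30-fold lower with testosterone, a log2 change of -0.38 ± 0.11 (SE, adjusted p = 0.0317). Between the vehicle times it was -0.35 ± 0.11 (SE, adjusted p = 0.0469), and after withdrawal testosterone against vehicle gave 0.08 ± 0.11 (SE, adjusted p = 0.722). These comparisons share the vehicle end mice. The call at the end was lost on leaving out 4 of the 12 mice in turn (adjusted p 0.0527 to 0.129 where lost), testosterone end mouse 1 or 3 or vehicle end mouse 1 or 3, and that between the vehicle times on leaving out 8 of the 12 mice in turn (adjusted p 0.0547 to 0.172 where lost). With the actin ratio as a covariate the end change of Stab2 was 0.0026 (adjusted p = 0.998).

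Egfl7 had signals of 66.8, 75.3 and 67.1 in the testosterone withdrawal mice, 79.3, 63.3 and 80.3 in the vehicle withdrawal mice, 46.2, 51.7 and 44.9 in the testosterone end mice and 77.9, 71.98 and 52.2 in the vehicle end mice. The testosterone end mice were below all the other 9. At the end the log2 change was -0.48 ± 0.16 (SE, adjusted p = 0.046) and between the testosterone times 0.55 ± 0.16 (SE, adjusted p = 0.0351). The end call was lost on leaving out 10 of the 12 mice in turn (adjusted p 0.0504 to 0.17 where lost), and the testosterone time call on leaving out 6 of the 12 mice in turn (adjusted p 0.0513 to 0.119 where lost). The suffix x of this probe set marks a design whose probes can bind other transcripts, and the other 3 Egfl7 probe sets gave -0.08, -0.01 and -0.18 at the end, none called. Pecam1 had signals of 25.9, 19.9 and 28.3 in the testosterone withdrawal mice, 35.1, 26.6 and 20.6 in the vehicle withdrawal mice, 24.4, 23.7 and 23.5 in the testosterone end mice and 40.6, 32.2 and 27.8 in the vehicle end mice. The end groups did not overlap, but the log2 change of -0.47 ± 0.22 (SE, adjusted p = 0.158) did not pass, and after withdrawal it was -0.13.

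Lyve1 had signals of 28.8, 17.6 and 27.4 in the testosterone withdrawal mice, 25.6, 38.1 and 19.5 in the vehicle withdrawal mice, 52.96, 31.3 and 26.1 in the testosterone end mice and 70.8, 36.6 and 30.1 in the vehicle end mice. Mouse 1 was the highest of each end group, and the testosterone and vehicle mice overlapped at each time. The log2 change of Lyve1 was -0.28 ± 0.34 (SE, adjusted p = 0.612) for testosterone at the end, -0.15 after withdrawal and -0.68 between the vehicle times, none past the threshold. Without vehicle end mouse 1 the change at the end was 0.081 (adjusted p = 0.901), so its sign rests on that mouse. A second Lyve1 probe set gave 0.0016 at the end, -0.18 after withdrawal and -0.11 between the vehicle times, none called. At the end Cdh5 changed by 0.46, Kdr by 0.12, Stab1 by -0.07 and Tek by 0.01, and none passed in that or any other comparison. The median change of the 8 endothelial genes was -0.04 between the vehicle times, while the 3 tested stellate and contractile genes changed by 1.20 (Pdgfrb, called), 0.84 (Acta2, not called) and 0.41 (Reln, called), all in log2. The 14 further stellate, fibroblast and smooth muscle markers had a median of 0.23 in that comparison, with 9 of 14 above 0. Over all genes the median there was 0.06, with 4167 of 7217 above 0. The untested Lrat had the opposite order with overlapping groups, at 10.7 ± 3.87 in the vehicle withdrawal mice and 14.96 ± 3.42 in the vehicle end mice (SD, n = 3 each).

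**Figure D4:**
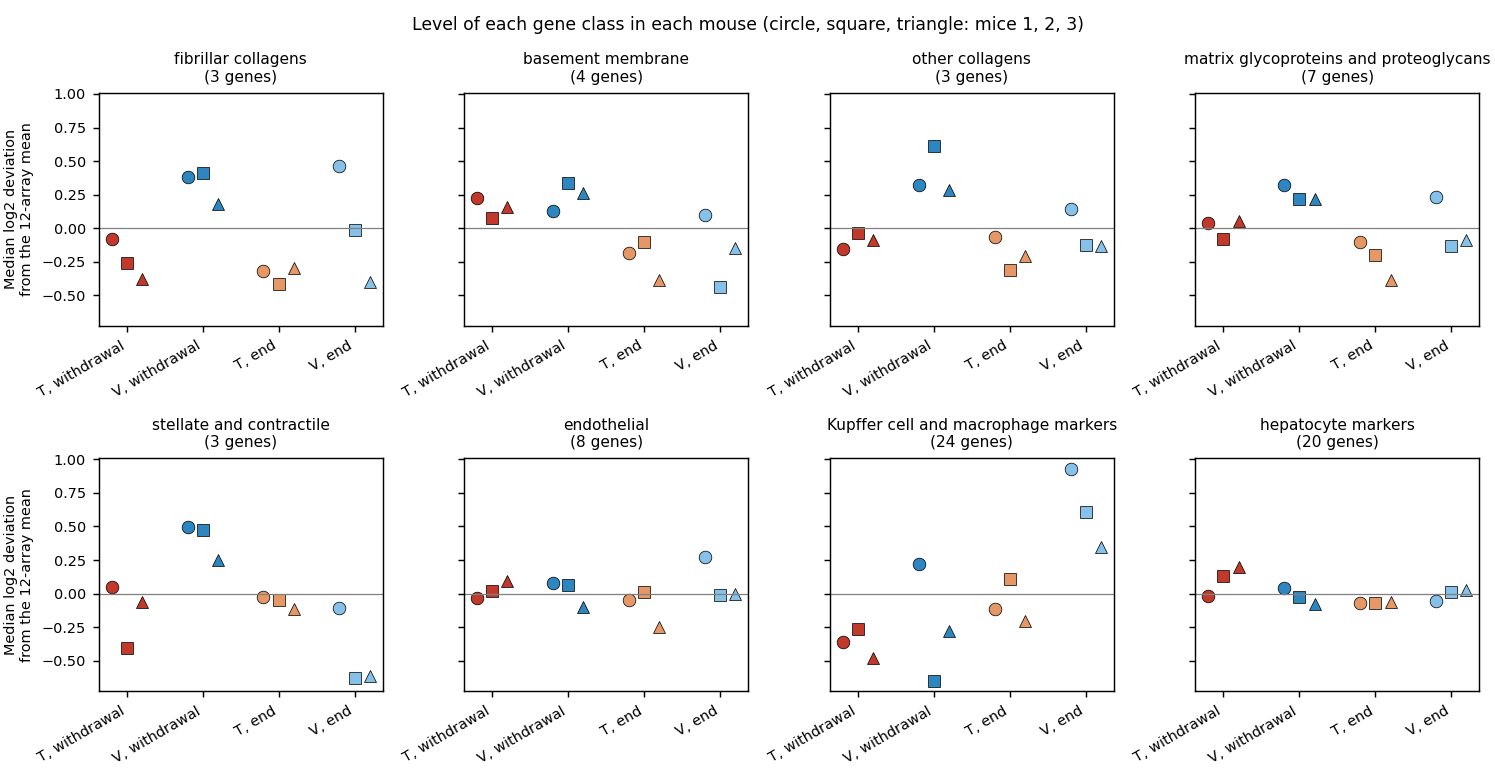
Median log2 deviation from the mean of the 12 arrays (vertical axis) over the tested genes of 6 classes and of 2 marker lists, in each mouse of testosterone withdrawal, vehicle withdrawal, testosterone end and vehicle end (left to right). The vehicle withdrawal mice are the highest group for stellate and contractile genes, at 0.25 to 0.50, while the vehicle end mice are the highest for macrophage markers, at 0.35 to 0.93.

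Markers of macrophages, another cell of the sinusoid, were counted beside these genes. Of 24 tested Kupffer cell and macrophage markers, 10 were lower with testosterone at the end (against 8.01% of all genes) and 0 higher. At the withdrawal time in vehicle mice 16 were lower (against 6.83%) and 0 higher. After withdrawal 1 was lower with testosterone (against 3.26%) and 0 higher. Between the testosterone times 3 were lower (against 5.31%) and 0 higher. Without vehicle end mouse 1 limma called 3 lower at the end, 11 between the vehicle times, 2 between the testosterone times and 0 after withdrawal (3 at an unadjusted p under 0.05). Their summed signal was 3143 to 3478 in testosterone withdrawal mice, 2743 to 4859 in vehicle withdrawal mice, 3853 to 4594 in testosterone end mice and 5227 to 8027 in vehicle end mice. Every vehicle end mouse was thus above every other mouse, and Stab2 was likewise highest in the vehicle end mice; the part of the macrophage markers in that result was not tested. Pdgfrb, Reln and Col14a1 were higher at the withdrawal time in vehicle mice, where 16 of the 24 macrophage markers were lower. Of the 20 hepatocyte markers, 7 were higher (against 5.57% of all genes) and 0 lower (against 5.31%) between the testosterone times (median log2 change 0.17). There Ecm1, Col18a1 and an Fn1 probe set were higher, and the part of the hepatocyte markers in those results was not tested. With testosterone at the end 1 was higher and 2 lower (against 9.42% and 8.01%). After withdrawal 2 were higher and 0 lower (against 2.74% and 3.26%). Between the vehicle times 2 were higher and 1 lower (against 11.0% and 6.83%). Bile duct, blood and mesothelial or fat markers were mostly under the filter, with 1 of 10, 4 of 18 and 1 of 7 genes on the array tested. Bicc1 changed by -0.79 with testosterone after withdrawal. Alas2, an erythroid enzyme, changed by 1.75 at the end and 2.01 after withdrawal. The 4 tested blood markers, Alas2 among them, had a median of -0.30 at the end, with 1 above 0, and -0.14 after withdrawal, with 2 above 0.

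Further genes of the same matrix were read from lists. For the counts in this and the next paragraph, 9.42% of all genes were higher and 8.01% lower with testosterone at the end. After withdrawal these shares were 2.74% and 3.26%, between the vehicle times 11.0% and 6.83%, and between the testosterone times 5.57% and 5.31%. Over all genes, 1485 of 7217 had an unadjusted p under 0.05 after withdrawal and 1870 of 7217 between the testosterone times. Of 22 other matrix proteins tested, 1 was higher and 5 lower with testosterone at the end, and 1 was higher and 2 lower after withdrawal. Lama3, a laminin chain of epithelia, was at least 3.77-fold higher with testosterone at the end and at least 3.43-fold higher after withdrawal, with 3 vehicle end and 2 vehicle withdrawal mice under the floor; it passed the filter only through testosterone arrays. Lower at the end were Mgp (-0.87), Prelp (-0.80) and Postn (-0.54), and lower after withdrawal Efemp1 (-0.69) and Sdc1 (-0.68), all in log2. Between the vehicle times 3 were higher, among them Ccn1, a matricellular protein (1.22), and 1 was lower; between the testosterone times 2 were higher, Ccn1 by 1.23 and Postn by 0.54. Of 5 other collagen chains tested, Col5a3 was higher with testosterone at the end (1.56), Col5a3 (1.37) and Col5a1 (0.67) were higher at the withdrawal time in vehicle mice, and 0 passed in the other 2 comparisons between groups, with 0 and 1 at an unadjusted p under 0.05.

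Of 13 collagen folding and crosslinking genes, 1 was higher with testosterone at the end, the transglutaminase Tgm2 (0.56), and 1 after withdrawal, the collagen prolyl isomerase Ppib (0.48). Between the vehicle times 2 were higher and 1 lower, Bmp1 (0.67), Tgm2 (0.54) and Ppib (-0.49). Of 11 other proteases and inhibitors, 1 was lower with testosterone at the end, Ctsb (-0.33), and 0 passed after withdrawal, with 5 at an unadjusted p under 0.05. Adamts1 (1.15) and Mmp14, the membrane protease that activates Mmp2 (0.92), were higher at the withdrawal time in vehicle mice, and Mmp14 (0.78) and Ctsl (0.28) in testosterone mice. Of 14 further stellate, fibroblast and smooth muscle markers, Hgf (-0.92, above the array median on vehicle arrays alone) and Tcf21 (-0.40) were lower with testosterone at the end, Vim (-0.87) and Tcf21 (-0.46) after withdrawal, and Gsn (1.85) and Tpm2 (1.66) were higher at the withdrawal time in vehicle mice; 0 passed between the testosterone times, with 4 at an unadjusted p under 0.05. Of 38 further endothelial markers, 1 was higher (against 9.42% of all genes) and 2 lower (against 8.01%) with testosterone at the end. The higher one was Nrp1 (0.50), and the lower ones were Cd36 (-0.86) and Oit3 (-0.71). After withdrawal 1 was lower (against 3.26%), again Cd36 (-1.30). Between the vehicle times 1 was higher (against 11.0%), again Cd36 (0.86). There 7 were lower (against 6.83%), led by Clec1b (-0.94), Oit3 (-0.76) and Fcgr2b (-0.65).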

How the data were processed

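The deposited values are array intensities on a linear scale, 1 signal for each of 22690 probe sets on 12 arrays, made by the authors with GCOS and MAS5, per the submitters' processing notes; no versions were stated. Their 2% trimmed means lay between 100.0 and 100.1, so the scale was kept. Scaling sets each array's total alike, and values near the background are noisy, which the floor below limits.

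Of the probe sets, 20380 carried 1 gene symbol in the platform annotation, 691 several, 1555 none, and 64 were controls; only the first were used. Signals under 4.84, the 25th percentile of all, were set to it before taking log2. The brightest probe set stood for a gene, kept if above its array's median on at least 3 of 12 arrays. Limma 3.58.1 in R 4.3.3 (lmFit, eBayes with a variance trend) fitted the 4 groups together, with 8 residual degrees of freedom, and Benjamini-Hochberg adjustment ran over all 7217 genes; tests are two-sided, and calls need an adjusted p under 0.05. Folds come from mean log2 values. The fit was tested on simulated data. Columns were matched to samples by accession. The 3 mice of a group are separate animals, per the labels' design text, and their number limits the precision.

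Same-numbered mice of the groups compared did not deviate together (correlations -0.19 to 0.0056), so the numbers do not pair mice. Members and gene lists were chosen with earlier results of these data known. Values in each mouse are given for members called in any comparison, for 8 canonical members, and for the 2 uncalled members with the largest testosterone change at each time. Of each list, at most 4 called genes per comparison are named. Other called genes, among them all called macrophage markers, are given by counts only or left out. Probe sets described beside the brightest one of their gene were chosen after their values were seen. Alternatives changed the floor, pseudocount, filter, scaling, choice of probe set, variance trend, samples fitted, actin covariate and replicate block, or left out each mouse; the macrophage counts without vehicle end mouse 1 were added after seeing the data.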

Additional observations from a re-analysis of the deposited data

Results flagged for a closer look

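In the fit of every probe set, the change of Fn1 probe set 1437218_at with testosterone differed between the 2 times, by 1.48 in log2 (after withdrawal minus end; limma, adjusted p = 0.00969). The testosterone end mice stood below all other mice, at 58.7 to 68.5, and the call held without any single mouse. With the actin ratio as a covariate the difference was 1.97 (adjusted p = 0.541).

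Pdgfrb, measured by 1436970_a_at, also differed between the 2 times, by -1.23 in log2 (limma, adjusted p = 0.0425 among all probe sets and 0.0568 with 1 probe set per gene). Testosterone against vehicle was -0.53 after withdrawal and 0.70 at the end. Among all probe sets the call was lost without 9 of the 12 mice in turn, at adjusted p of 0.0555 to 0.124, and with the actin ratio as a covariate (-1.67, adjusted p = 0.937).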

How the results depend on the processing

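Over 25 alternatives, 698 of 875 recomputed gene values kept their direction and their side of the threshold, 150 lost a call, 4 gained one and 23 turned their sign, 2 of them of called changes, Bgn (0.0038) and Stab2 (0.0026) at the end with the actin covariate. The 21 others were of uncalled changes, none of them called after turning. At the end the actin covariate gave -0.12 for Acta2, 0.11 for Lyve1 and 0.042 for Pecam1, and after withdrawal -0.028 for Stab2. Acta2 at the end was -0.0053 with log2(signal + 16), and Col4a1 after withdrawal 0.049 with quantile normalization and 0.076 with median centring. With the actin covariate the number of members called was 0 for testosterone at the end (7 as reported), 0 between the testosterone times (3) and 2 between the vehicle times (7), and the members' median was 0.0026 for testosterone at the end, 0.029 between the testosterone times and -0.31 for the difference of the testosterone effects. Testosterone end mice had the highest actin ratios, so ratio and group cannot be told apart. With no filter 2, 1 and 4 members were called in the same 3 comparisons. With the replicate block 4 were called for testosterone at the end and 1 between the testosterone times, and the block changed the count past 1.5 times in no other comparison. With only the 2 groups compared the counts were 3 at the end and 4 between the vehicle times. The mean of all probe sets called 4 of 24 at the end, and every probe set on its own called 5 of 46 between the testosterone times. For testosterone after withdrawal (1 as reported) the count was 2 with a floor of 16, the mean of all probe sets, every probe set, no variance trend or only the 2 groups compared. For the difference (0 as reported) it was 1 with a floor of 16, 1 with the mean and 2 with every probe set. For each of these changes the cause was not tested.

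Leaving out 1 mouse, Acta2 at the end was at its lowest -0.15 and at its highest 0.33, Col4a1 -0.034 and 0.31 at the end and -0.069 and 0.042 after withdrawal, Lyve1 -0.58 and 0.081 at the end and -0.38 and 0.11 after withdrawal, and Pecam1 -0.32 and 0.063 after withdrawal. It gave 2 to 6 members called for testosterone at the end (2 without vehicle end mouse 1), 1 to 2 after withdrawal, 1 to 4 between the testosterone times, 3 to 8 between the vehicle times (3 without vehicle withdrawal mouse 2) and 0 to 1 for the difference. The members' median was -0.25 to -0.020 at the end (-0.020 without vehicle end mouse 1), -0.33 to -0.18 after withdrawal (-0.33 without vehicle withdrawal mouse 3), 0.13 to 0.19 between the testosterone times, 0.26 to 0.42 between the vehicle times (0.42 without vehicle end mouse 1) and -0.10 to 0.08 for the difference. Col1a1, Col15a1, Lama4, Lrat and Des were too dim to test with the filter.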

Other observations

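Of 22 tested genes of TGF-beta, PDGF and VEGF signalling, most did not pass in any 1 comparison. With testosterone at the end limma called 1 higher and 3 lower, beside 9.42% and 8.01% of all genes. After withdrawal it called 0 higher and 1 lower, beside 2.74% and 3.26%. There 9 of the 22 had an unadjusted p under 0.05, beside 1485 of 7217 over all genes. The vehicle times had 5 higher and 1 lower, beside 11.0% and 6.83%, and the testosterone times 6 higher and 1 lower, beside 5.57% and 5.31%. Id1, a target gene of BMP signals, had signals of 66.4, 75.7 and 54.7 in the testosterone withdrawal mice, 167, 94.8 and 181 in the vehicle withdrawal mice, 28.3, 34.7 and 29.7 in the testosterone end mice and 70.3, 85.6 and 63.6 in the vehicle end mice. Testosterone mice were below vehicle mice of the same time without overlap, with a log2 change of -1.13 ± 0.21 (SE, adjusted p = 0.00465) after withdrawal and -1.24 ± 0.21 (SE, adjusted p = 0.00125) at the end. Pdgfc, a ligand of PDGF receptors, was higher at the withdrawal time by 1.08 in testosterone mice and 1.36 in vehicle mice.

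Of the same 22 genes, limma called the difference between the testosterone effects for Tgif1, a repressor of TGF-beta responses (1.31, adjusted p = 0.0206). It also called the ligand Bmp2 (-1.24, adjusted p = 0.0418), beside 2.19% of all genes. With the actin ratio as a covariate, 0 of all genes were higher and 1 lower for this difference, beside 57 and 101, so the call of Tgif1 was lost. Without vehicle withdrawal mouse 3 the all-gene counts were 11 and 15. These 2 genes were not followed singly in the alternatives. Bmp2 averaged 50.9 ± 9.79 in the testosterone withdrawal mice, 76.9 ± 11.3 in the vehicle withdrawal mice, 83.3 ± 15.4 in the testosterone end mice and 54.5 ± 15.02 in the vehicle end mice (SD, n = 3 each). Of 9 tested integrins and matrix receptors, Itga6 (-0.97) and Dag1 (-0.48) were lower with testosterone after withdrawal (against 3.26% of all genes). The hyaluronan receptor Cd44 (-0.81) and Cd47 (-0.42) were lower at the end (against 8.01%). Itga5, a chain of the fibronectin receptor, was higher at the withdrawal time by 0.91 in testosterone mice and by 1.19 in vehicle mice.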
